A study of Mus musculus with 6 samples.

Results

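The collagens of mouse liver were examined together with the genes of hepatic stellate cells and of the extracellular matrix, in livers that received an adenovirus carrying Dyrk1b. The group was made of every row of the deposited table whose symbol is a collagen chain (Col, a type number, a and a chain number), plus 22 further genes chosen by name. The rule took 66 genes of 22274, of which 44 were collagen chains.

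Collagens are triple-helical proteins built from 3 chains, and the type decides the structure they form: fibrils, basement membrane networks, beaded filaments or molecules that sit on the surface of fibrils. In liver, hepatic stellate cells of the perisinusoidal space store retinoids at rest, and after injury they turn into contractile, alpha-smooth muscle actin positive cells that secrete fibrillar collagen. The matrix they lay down is processed by hydroxylases, cross-linked by lysyl oxidases and transglutaminases, and turned over by metalloproteinases under the control of their tissue inhibitors.

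The study measured messenger RNA in whole liver of C57 mice by RNA-seq. One group received Ad-Dyrk1b, an adenovirus that overexpresses mouse Dyrk1b, a protein kinase of the DYRK family, and the control group received Ad-EGFP, the same kind of vector with a fluorescent protein. Each group had 3 libraries, and all 6 libraries therefore came from liver exposed to adenovirus, so no untreated liver enters any comparison. Age, sex, virus dose, interval after infection and whether each library is a separate mouse are not given in the labels, so p-values measure no more than how far these libraries spread, and that spread may be technical.

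Library totals lay between 17326516 and 20024888 counts, and levels within a gene are given as CPM, counts scaled to a common library size after TMM correction for library composition. At these depths 3 counts correspond to 0.150 to 0.173 CPM. Dyrk1b itself stood at 150.1, 270.0 and 248 CPM with Ad-Dyrk1b and at 9.04, 11.1 and 9.61 CPM in the Ad-EGFP libraries, so every library matched its label. Over all 13201 genes tested, edgeR called 12.2% at an adjusted p under 0.05, with 7.36% higher and 4.81% lower in Ad-Dyrk1b. Ad-Dyrk1b replicate 3 stood apart in erythroid transcripts, whose summed level was 3819 CPM there. It was 869 and 1113 CPM in Ad-Dyrk1b replicates 1 and 2 and 522 to 840 CPM in Ad-EGFP, so the groups did not overlap. All 6 erythroid markers had estimates above 0 and none was called.

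Among the 66 genes, 3 rose and none fell: Col9a1, Col9a2 and Col12a1, all chains of fibril-associated collagens. The other 44 of 47 tested genes did not pass the test, among them all 6 stellate cell genes, the 8 fibrillar collagens tested and each of the 22 genes that are not collagens. The 3 calls are 6.38% of the tested members, beside 7.36% of all tested genes called higher, and none called lower stands beside 4.81% of all tested genes. Col9a1 and Col9a2 passed the filter on low counts only through the Ad-Dyrk1b libraries. The filter thus partly sets the count called higher, and nothing is read from it against the 7.36%. At an unadjusted p under 0.05, edgeR had 6 members higher (beside 14.9% of all tested genes) and 3 lower (beside 13.5%). With DESeq2, 4 members were higher (8.18% of all genes) and 1 was lower (4.96%), and with limma-voom 3 were higher (6.96%) and none lower (4.40%). By the adjusted p in the authors' deposited table, 4 members were higher (6.02% of its genes with counts) and 2 lower (3.57%).

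The median log2 fold change of the 47 tested members was -0.09, beside -0.005 for all tested genes, and 18 members had an estimate above 0 and 29 below 0, beside 49.4% and 50.6% of all tested genes. The 3 libraries of one group lay wholly above or below those of the other for 8 members (17.02%), 6 of them higher and 2 lower in Ad-Dyrk1b, and for 33.5% of all tested genes. Col9a1 and Col9a2, tested only through their Ad-Dyrk1b counts, are among the 6. The remaining 19 members, all collagen chains, were under the filter on low counts. In whole tissue, fewer cells of a type and less RNA per cell cannot be told apart in any of these values.

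**Figure D1:**
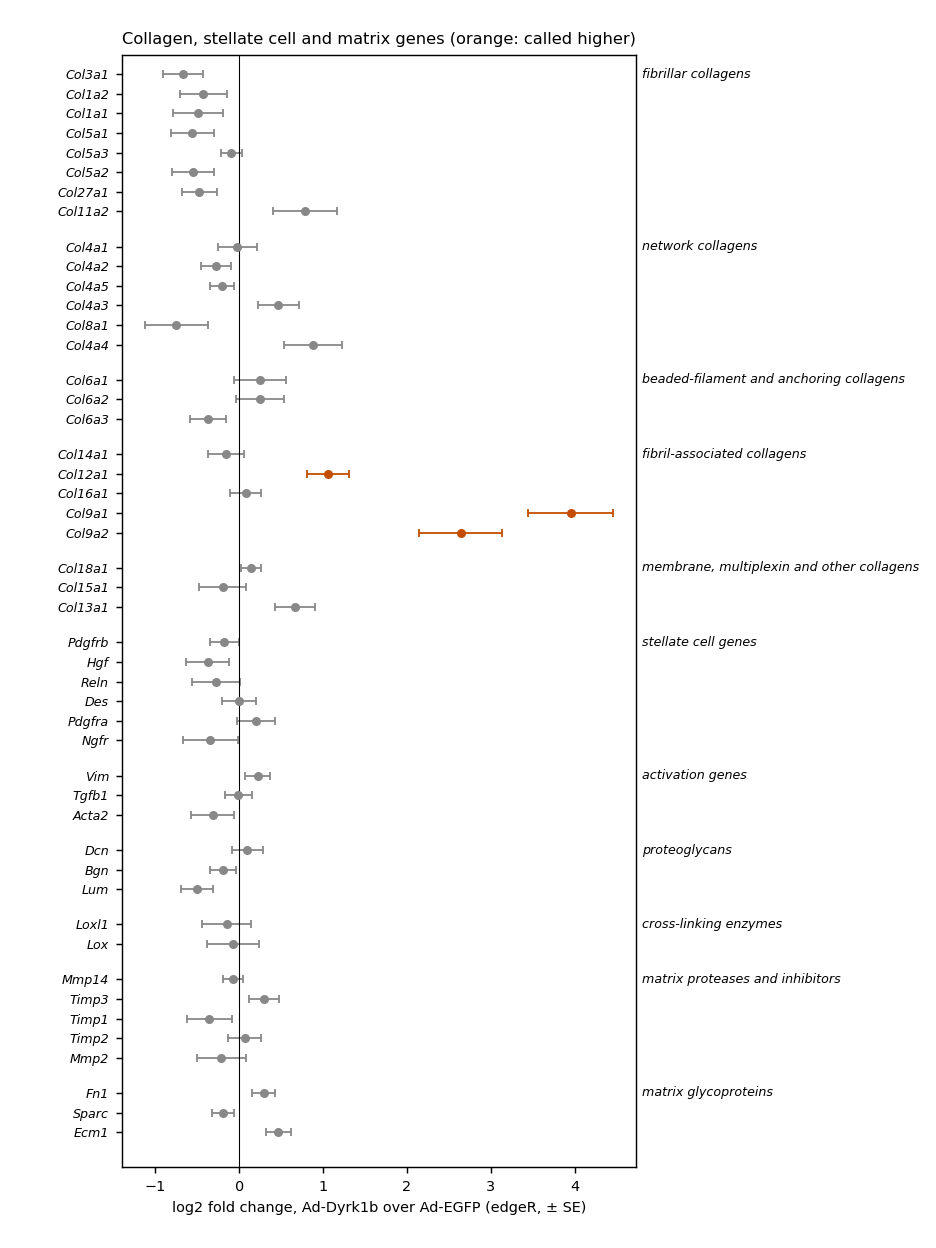
Log2 fold change of each of the 47 tested members, Ad-Dyrk1b over Ad-EGFP, from edgeR with 3 libraries a group; points are estimates, bars are standard errors, and genes are arranged by role. Col9a1, Col9a2 and Col12a1 lie to the right of 0 with adjusted p under 0.05, and 7 of the 8 fibrillar collagens lie to the left of 0 without passing the test.

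Among the fibril-associated collagens, Col9a1, Col9a2 and Col12a1 rose and the 2 other tested chains did not pass the test. Col9a1 and Col9a2 were tested only because they were high in Ad-Dyrk1b, so the filter on low counts partly sets this count, and nothing is read from it against the 7.36% of all tested genes called higher. Col9a1 encodes the alpha 1 chain of type IX collagen, best known from the surface of cartilage fibrils. Its counts were 42, 22 and 36 with Ad-Dyrk1b and 2 in each Ad-EGFP library, or 2.16, 1.18 and 2.09 CPM against 0.111, 0.109 and 0.111 CPM. All 3 Ad-Dyrk1b libraries were above all 3 Ad-EGFP libraries, and every Ad-EGFP value was below the level of 3 counts. The log2 fold change was 3.95 ± 0.51 (SE), with an edgeR adjusted p of 0.000444. Summed over libraries and scaled to depth, the 100 counts against 6 gave a ratio of 16.4, with a 95% interval of 7.25 to 45.6 that covers counting error only.

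Col9a2, which encodes the alpha 2 chain of the same trimer, moved with it. Its counts were 17, 23 and 19 in Ad-Dyrk1b and 2, 3 and 4 in Ad-EGFP, or 0.874, 1.23 and 1.10 CPM against 0.111, 0.164 and 0.222 CPM. The groups did not overlap. The log2 fold change was 2.64 ± 0.49 (SE) with an edgeR adjusted p of 0.00461, and the 59 against 9 summed counts gave a ratio of 6.43 with a counting interval of 3.17 to 14.8. Col9a3, the third chain of type IX collagen, had 7, 6 and 8 counts in Ad-Dyrk1b and 11, 4 and 3 in Ad-EGFP. Those groups overlapped, and Col9a3 was under the filter on low counts; 6.07% of its exonic bases also lie in Tcfl5 on the opposite strand.

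Both type IX chains were low throughout: mean FPKM, a unit per transcript length that allows genes to be compared, was 0.58 ± 0.193 (SD, n = 3) for Col9a1 and 0.35 ± 0.0458 for Col9a2 in Ad-Dyrk1b. In Ad-EGFP the values were 0.04 for Col9a1 in every library and 0.06 ± 0.02 for Col9a2. Of the other chains best known from cartilage, Col2a1 had 1 count in all 6 libraries together, Col11a1 0 to 2 counts a library and Col10a1 0 or 1. Col11a2, a chain of type XI collagen, had more, with 43, 42 and 30 counts in Ad-Dyrk1b and 11, 33 and 21 in Ad-EGFP, and its groups overlapped. In GENCODE M21 (GRCm38) Col9a1 spans chr1:24177610-24252684 and Col9a2 chr4:121039385-121055322, both on the plus strand. Leaving out each library in turn, edgeR adjusted p ranged from 0.000545 to 0.00429 for Col9a1 and from 0.0106 to 0.0251 for Col9a2.

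The sequences upstream of Col9a1, Col9a2 and Col3a1 are shown because the first pair moved together while Col3a1, the most abundant fibrillar chain, did not pass the test. They come from RefSeq (GRCm38.p6), 5′ to 3′ on the gene's strand, and end before the first annotated exon. In this annotation Col9a1 has a pair of start sites, and the deposited counts are per gene and do not separate them. Capitals mark the letters of a searched motif, here TATAAA and, on both strands with an overlap, ACAAT.
Col9a1, first start, chr1:24177360-24177609 (+): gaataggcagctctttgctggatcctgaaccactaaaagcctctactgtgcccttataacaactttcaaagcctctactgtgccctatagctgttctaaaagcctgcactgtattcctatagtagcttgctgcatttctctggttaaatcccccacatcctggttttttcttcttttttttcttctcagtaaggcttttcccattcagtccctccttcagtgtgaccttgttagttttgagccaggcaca
Col9a1, second start, chr1:24194953-24195186 (+): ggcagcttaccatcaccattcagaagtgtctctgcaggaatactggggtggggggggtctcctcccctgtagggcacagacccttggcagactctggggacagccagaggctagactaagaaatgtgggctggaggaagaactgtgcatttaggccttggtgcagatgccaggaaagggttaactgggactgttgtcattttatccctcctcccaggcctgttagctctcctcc
Col9a2, chr4:121039316-121039384 (+): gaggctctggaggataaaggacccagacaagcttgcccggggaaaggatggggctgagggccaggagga
Col3a1, chr1:45311288-45311537 (+): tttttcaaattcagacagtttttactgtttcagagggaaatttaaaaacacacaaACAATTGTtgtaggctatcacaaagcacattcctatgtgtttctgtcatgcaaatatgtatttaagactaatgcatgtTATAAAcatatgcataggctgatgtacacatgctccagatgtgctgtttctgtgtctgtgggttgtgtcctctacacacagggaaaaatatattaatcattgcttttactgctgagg

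The search covered both strands of the 250 bases before each start and used the letters of the TATA box (TATAAA), of the CCAAT box (as named), of the GC box (GGGCGG), of an AP-1 site (TGANTCA) and of a core read by SOX factors (ACAAT). Of 32851 mouse promoters of that length, 12.4% held the TATA box letters, 33.8% the CCAAT box, 32.7% the GC box, 6.75% the AP-1 letters and 27.7% the SOX core. Among the 50 members with an entry, 7, 17, 31, 2 and 3 held them, in that order. Members were counted as genes, and a gene with several promoters counted if any of them held the letters. The shares of all promoters were counted per promoter, so the member counts cannot be set against them directly. In the searched windows, Col3a1 has TATAAA with its first base 117 bases upstream and ACAAT at 195 and, on the opposite strand, 192 bases upstream. The window of the second Col9a1 start has the CCAAT box 18 bases upstream, and that of Col9a2 has the GC box 14 and, on the opposite strand, 26 bases upstream. The Col9a1 and Col9a2 matches run into or lie within an annotated exon, so they are not whole in the printed stretches, which hold 234 and 69 of the 250 bases. The window of the first Col9a1 start has no match to these letters. These letter matches are a description of the windows.

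Col12a1 encodes type XII collagen, which bridges fibrils and their surroundings, and was the only one of the 3 called chains with more than 50 counts in every library. The gene lies at chr9:79598991-79718831 on the minus strand. It stood at 9.56, 10.2 and 16.2 CPM in Ad-Dyrk1b and at 4.22, 7.44 and 5.56 CPM in Ad-EGFP. The groups did not overlap, and Ad-Dyrk1b replicate 3 was the highest library. The log2 fold change was 1.06 ± 0.25 (SE), with an edgeR adjusted p of 0.0207. The call ended without Ad-Dyrk1b replicate 3 (log2 fold change 0.78, adjusted p 0.0597), without Ad-EGFP replicate 1 (0.88, 0.0639) and also without Ad-EGFP replicate 3 (1.03, 0.0690). Its mean FPKM was 2.33 ± 0.656 (SD) against 1.08 ± 0.189, and the deposited FPKM per count differed up to 1.80-fold between libraries for this gene.

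Among the remaining fibril-associated chains, Col14a1, type XIV collagen, was the most abundant of the group, with 31.0, 40.3 and 53.5 CPM in Ad-Dyrk1b and 36.1, 54.3 and 48.2 CPM in Ad-EGFP. These libraries overlapped, and the log2 fold change was -0.15 ± 0.21 (SE), edgeR adjusted p 0.687. Col16a1 lay between 5.16 and 6.37 CPM in all 6 libraries, with a log2 fold change of 0.08 ± 0.18 and an edgeR adjusted p of 0.814.

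**Figure D2:**
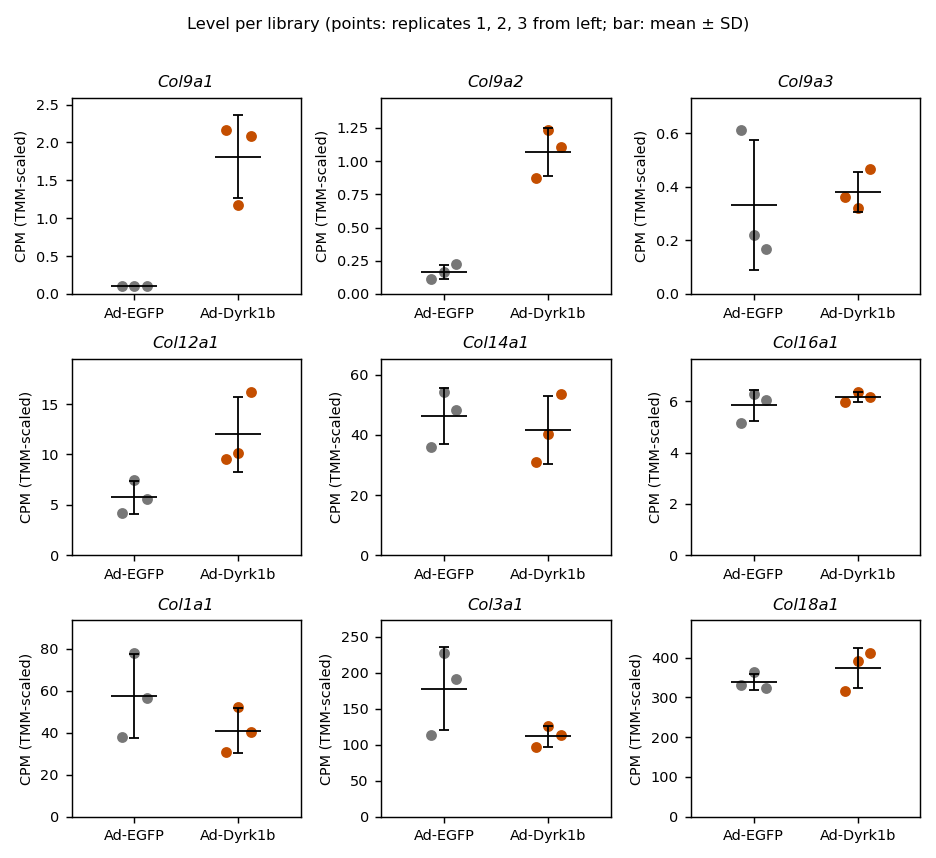
Level of single collagen genes in each library in CPM, on linear axes from 0; points are replicates 1, 2 and 3 from left to right, and bars give the mean ± SD of 3 libraries. Col9a1 lies at 1.18 to 2.16 CPM in Ad-Dyrk1b against about 0.11 in Ad-EGFP, whereas Col3a1 spans 96.8 to 126 against 114 to 227 CPM and overlaps.

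None of the 8 tested fibrillar collagens passed the test, but 7 of the 8 estimates were below 0 and their median log2 fold change was -0.48. Col3a1, the chain of type III collagen that forms the reticular fibres of liver, was the most abundant, with 96.8, 126 and 113 CPM in Ad-Dyrk1b and 114, 227 and 191 CPM in Ad-EGFP. Ad-EGFP replicate 1 lay within the Ad-Dyrk1b range and the other 2 Ad-EGFP libraries above it. The log2 fold change was -0.66 ± 0.24 (SE), with an edgeR adjusted p of 0.114. DESeq2 called Col3a1 lower with an adjusted p of 0.00927, and the authors' deposited table lists it with a log2 fold change of -0.88 and an adjusted p of 0.0115. That log2 fold change is the ratio of the mean FPKM, 30.3 in Ad-Dyrk1b and 55.7 in Ad-EGFP, and not of counts. The deposited FPKM per count differed up to 1.31-fold between libraries for Col3a1.

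The type I chains, which together form the main fibril of scar tissue, had the same arrangement of libraries. Col1a1 stood at 30.6, 52.2 and 40.1 CPM in Ad-Dyrk1b and 37.9, 77.8 and 56.7 CPM in Ad-EGFP, a log2 fold change of -0.49 ± 0.30 (SE) with an edgeR adjusted p of 0.339. Col1a2 stood at 43.9, 64.3 and 52.6 CPM against 44.8, 95.4 and 75.6 CPM, a log2 fold change of -0.43 ± 0.28 with an edgeR adjusted p of 0.379. In both genes Ad-EGFP replicate 2 was the highest library and Ad-EGFP replicate 1 lay among the Ad-Dyrk1b libraries.

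Type V collagen nucleates type I fibrils and sets their diameter. Col5a1 stood at 13.7, 17.1 and 16.1 CPM in Ad-Dyrk1b and 14.1, 31.0 and 23.8 CPM in Ad-EGFP, with a log2 fold change of -0.56 ± 0.26 (SE) and an edgeR adjusted p of 0.194. The remaining type V chains, Col5a2 and Col5a3, had log2 fold changes of -0.55 and -0.09, and Col27a1 had -0.47. Col11a2, at 0.61 to 2.25 CPM, had the only estimate above 0 among the tested fibrillar chains, 0.79 ± 0.38 with an edgeR adjusted p of 0.194.

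Summed over all 11 fibrillar genes, the level was 219, 294 and 262 CPM in Ad-Dyrk1b and 252, 483 and 390.3 CPM in Ad-EGFP. The sums overlapped through Ad-EGFP replicate 1. Without that library edgeR placed 7 members under an adjusted p of 0.05 as lower, 4 of them fibrillar, while 2.20% of all tested genes were called lower in the same fit. They were Col3a1 (log2 fold change -0.90, adjusted p 0.00239), Col5a1 (-0.81, 0.00850), Col5a2 (-0.77, 0.0322), Col1a2 (-0.67, 0.0329), Lum (-0.68, 0.0269), Col4a2 (-0.47, 0.0425) and Col6a3 (-0.59, 0.0476). With all 6 libraries and no covariate edgeR called none of them. With the replicate number as a block edgeR called Col3a1 lower (adjusted p 0.0134), in a fit that called 774 of all 13201 tested genes lower.

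The network-forming collagens, which make up basement membranes and related sheets, had no call among 6 tested chains. Col4a1 and Col4a2 encode the chains of the ubiquitous basement membrane trimer and are transcribed from one shared promoter region in opposite directions. Col4a1 stood at 118, 144 and 154 CPM in Ad-Dyrk1b and 99.0, 192 and 131 CPM in Ad-EGFP, a log2 fold change of -0.02 ± 0.23 (SE) with an edgeR adjusted p of 0.965. Col4a2 stood at 46.8, 48.5 and 57.8 CPM against 43.8, 73.0 and 68.7 CPM, with -0.28 ± 0.18 and an edgeR adjusted p of 0.341. Both pairs of groups overlapped.

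The minor type IV chains, known from specialised basement membranes, were much less abundant. Col4a5 stood at 12.03, 12.3 and 11.4 CPM in Ad-Dyrk1b, all below the 15.4, 13.4 and 12.4 CPM of Ad-EGFP, with a log2 fold change of -0.21 ± 0.14 (SE) and an edgeR adjusted p of 0.369. Col4a3 had 0.47 ± 0.24, with overlapping groups and an edgeR adjusted p of 0.223. Col4a4 was higher in each Ad-Dyrk1b library, at 1.90, 2.35 and 4.24 CPM against 1.39, 1.53 and 1.67 CPM, but did not pass the test (0.88 ± 0.34, edgeR adjusted p 0.113). Col8a1, a short-chain network collagen, was lower in each Ad-Dyrk1b library at 0.874 to 1.22 CPM against 1.28 to 2.52 CPM, without passing the test (-0.75 ± 0.37, edgeR adjusted p 0.209).

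Type VI collagen forms beaded filaments around cells, and its 3 tested chains gave no call. Col6a1 ranged from 10.7 to 24.5 CPM in Ad-Dyrk1b and from 11.5 to 19.7 CPM in Ad-EGFP, a log2 fold change of 0.25 ± 0.31 (SE, edgeR adjusted p 0.653). Col6a2 had 0.24 ± 0.29 (edgeR adjusted p 0.623) and Col6a3 had -0.37 ± 0.22 (edgeR adjusted p 0.297). Ad-Dyrk1b replicate 3 was the highest library for Col6a1 and Col6a2, and without it their estimates were -0.055 and -0.0040.

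Col18a1, whose C-terminal fragment is endostatin, was the most abundant collagen gene in these libraries, with a mean FPKM of 81.2 ± 7.73 (SD) in Ad-Dyrk1b and 74.9 ± 7.51 in Ad-EGFP. Its levels were 317, 392 and 411 CPM against 331, 363 and 324 CPM, with overlap, a log2 fold change of 0.14 ± 0.12 (SE) and an edgeR adjusted p of 0.490. Col15a1, the other multiplexin, had -0.20 ± 0.28 with an edgeR adjusted p of 0.691. Col13a1, a transmembrane collagen, was higher in each Ad-Dyrk1b library at 6.27, 4.71 and 4.88 CPM against 2.83, 3.12 and 4.06 CPM, but did not pass the test (0.67 ± 0.23, edgeR adjusted p 0.0843).

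Of the 19 chains under the filter, Col19a1 and Col26a1 had no count in any library, 4 others had at most 3 counts in each, and the highest count of any of them was 16. Col25a1, a transmembrane collagen, had 1, 0 and 0 counts in Ad-Dyrk1b and 13, 2 and 9 in Ad-EGFP. Each Ad-EGFP library was above each Ad-Dyrk1b library, and the authors' deposited table lists Col25a1 with an adjusted p of 0.0469, but 1 count limits the ratio of Ad-EGFP to Ad-Dyrk1b to a counting interval of 3.99 to 1006. Col6a5 had 3, 10 and 4 counts against 2, 0 and 0, and Col28a1 had 1, 0 and 10 against 0, 0 and 1. These counts were chosen for mention after the values were seen.

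None of the 6 stellate cell genes passed the test, and in each of them the groups overlapped. Des, the intermediate filament protein desmin, stood at 5.14, 4.87 and 5.58 CPM in Ad-Dyrk1b and 5.94, 4.32 and 5.33 CPM in Ad-EGFP, with mean 5.20 CPM in both groups and an edgeR adjusted p of 0.999. Pdgfrb, the receptor for the PDGF that drives stellate cell proliferation, stood at 10.6, 11.8 and 14.6 CPM against 11.8, 13.4 and 16.7 CPM (log2 fold change -0.18 ± 0.17 SE, edgeR adjusted p 0.538). Hgf, the hepatocyte growth factor that non-parenchymal cells supply, ranged from 5.78 to 7.44 CPM against 5.44 to 11.7 CPM (-0.38 ± 0.26, edgeR adjusted p 0.359).

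Reln, the secreted glycoprotein reelin that marks stellate cells, stood at 14.3, 12.7 and 27.7 CPM in Ad-Dyrk1b and 19.4, 25.9 and 20.8 CPM in Ad-EGFP. Ad-Dyrk1b replicate 3 was the highest of all 6 libraries and the other 2 Ad-Dyrk1b libraries were the lowest. The log2 fold change was -0.28 ± 0.29 (SE) with an edgeR adjusted p of 0.581, and without that library it was -0.70 with an adjusted p of 0.0206. Pdgfra, which also marks fibroblasts, had 0.20 ± 0.23, and Ngfr, the p75 neurotrophin receptor, had -0.34 ± 0.33, with edgeR adjusted p of 0.610 and 0.527.

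The 3 activation genes were not called. Acta2, alpha-smooth muscle actin, is the standard mark of the activated stellate cell and is also made by vascular smooth muscle. It stood at 4.22, 8.19 and 5.81 CPM in Ad-Dyrk1b and 6.05, 9.30 and 7.33 CPM in Ad-EGFP, with overlap, a log2 fold change of -0.32 ± 0.25 (SE) and an edgeR adjusted p of 0.437. Vim, the mesenchymal filament protein vimentin, had 0.22 ± 0.15 (edgeR adjusted p 0.367). Tgfb1, the ligand best known for inducing collagen synthesis, stood at 19.0 to 23.1 CPM against 15.9 to 23.6 CPM (-0.01 ± 0.16, edgeR adjusted p 0.979).

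The small leucine-rich proteoglycans bind collagen fibrils and control their spacing, and none of the 3 was called. Dcn (decorin) stood at 153, 158 and 256 CPM in Ad-Dyrk1b and 160, 189 and 181 CPM in Ad-EGFP, with Ad-Dyrk1b replicate 3 highest and a log2 fold change of 0.10 ± 0.19 (SE, edgeR adjusted p 0.774). Bgn (biglycan) had -0.19 ± 0.15 with an edgeR adjusted p of 0.455. Lum (lumican) stood at 18.0, 20.5 and 22.3 CPM against 21.5, 38.1 and 26.7 CPM, overlapping only through Ad-EGFP replicate 1, with -0.51 ± 0.19 and an edgeR adjusted p of 0.107. The lysyl oxidases that cross-link collagen, Lox and Loxl1, had log2 fold changes of -0.07 ± 0.31 and -0.15 ± 0.29, with edgeR adjusted p of 0.897 and 0.775.

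Neither the metalloproteinases nor their inhibitors among the members were called. Mmp14, a membrane-anchored collagenase, stood at 69.0, 66.4 and 75.5 CPM in Ad-Dyrk1b and 61.7, 77.1 and 82.3 CPM in Ad-EGFP (log2 fold change -0.07 ± 0.12 SE, edgeR adjusted p 0.747). Mmp2, the gelatinase that Mmp14 activates, had -0.21 ± 0.29 with an edgeR adjusted p of 0.678. The tissue inhibitors Timp1, Timp2 and Timp3 had -0.35 ± 0.27, 0.07 ± 0.19 and 0.29 ± 0.18, with edgeR adjusted p of 0.424, 0.851 and 0.307, and each had overlapping groups. The sources used here do not give the strand setting of the counting, and 21.3% of the exonic bases of Timp3 also lie in Syn3 on the opposite strand, so its reads cannot be separated from those of Syn3.

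The matrix glycoproteins held the most abundant member, Fn1 (fibronectin), which hepatocytes also secrete into plasma, at a mean FPKM of 133 ± 15.9 (SD) in Ad-Dyrk1b and 115 ± 13.04 in Ad-EGFP. Its levels were 628, 849 and 846 CPM against 598, 694 and 607 CPM, a log2 fold change of 0.29 ± 0.14 (SE) with an edgeR adjusted p of 0.183. Ecm1, a secreted protein known for holding latent TGF-beta inactive in liver, stood at 89.7, 62.7 and 94.0 CPM against 62.5, 61.7 and 53.9 CPM. The groups did not overlap, though Ad-Dyrk1b replicate 2 lay next to the Ad-EGFP libraries, and the log2 fold change was 0.47 ± 0.14 with an edgeR adjusted p of 0.0555. Ecm1 passed with DESeq2 (adjusted p 0.0256), in edgeR with RLE size factors (0.0492) or without the low-count filter (0.0377), in the authors' deposited table (adjusted p 0.0316) and in edgeR without Ad-Dyrk1b replicate 2 (log2 fold change 0.63, adjusted p 0.00733). Sparc, a collagen-binding glycoprotein, had -0.20 ± 0.13 with an edgeR adjusted p of 0.364.

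Across genes, Fn1, Dcn and Col18a1 had the highest mean FPKM over the 6 libraries (124, 104 and 78.1), followed by Sparc (59.3), Bgn (57.3), Ecm1 (43.96), Col3a1 (43.0), Vim (38.7), Col4a1 (28.2) and Mmp14 (27.9). Neighbours in that order such as Sparc and Bgn, or Ecm1 and Col3a1, differed by less than their spread between libraries. The called chains Col9a1 and Col9a2, at 0.31 and 0.205, were among the least abundant of the tested members.

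The members varied between libraries of one group as well as between groups. Ad-EGFP replicate 2 was the highest library for 21 of the 47 tested members (44.7%), beside 15.8% of all tested genes, and Ad-Dyrk1b replicate 3 for 12 (25.5%), beside 18.7%. Ad-EGFP replicate 1 was the lowest for 18 (38.3%, beside 19.9%) and Ad-Dyrk1b replicate 1 for 17 (36.2%, beside 16.4%). Summed over the 44 collagens the level was 818, 1020 and 1060 CPM in Ad-Dyrk1b and 837, 1276 and 1049 CPM in Ad-EGFP. Low and high libraries thus occurred in both groups.

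**Figure D3:**
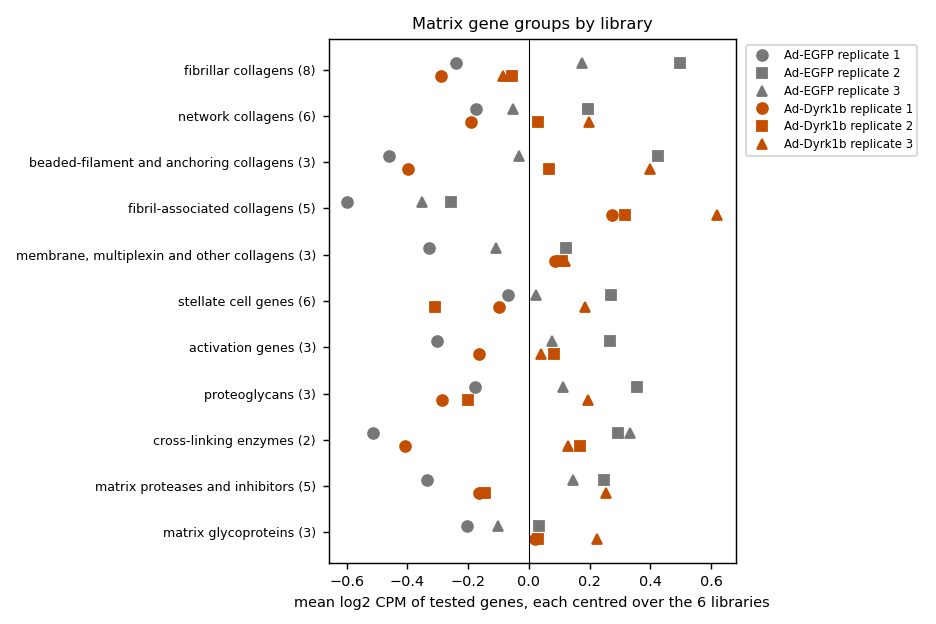
Mean log2 CPM of the tested genes in each role group, every gene centred on its mean over the 6 libraries, with symbols for replicate and colours for group; the number of tested genes is in parentheses. For the fibrillar collagens the libraries run from -0.29 (Ad-Dyrk1b replicate 1) and -0.24 (Ad-EGFP replicate 1) to 0.50 (Ad-EGFP replicate 2).

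Markers of the cells that could supply these transcripts were measured in the same libraries. Their calls, all of them higher in Ad-Dyrk1b, stand beside 7.36% of all tested genes called higher, and in lists this short 1 or 2 calls say little. Of 10 further stellate cell markers 1 was called, Angptl6 (log2 fold change 0.95 ± 0.22 SE, edgeR adjusted p 0.0152). Of the exonic bases of Angptl6, 16.8% also lie in A230050P20Rik on the opposite strand. The estimates of the 10 ran from -0.82 (Gfap, not called) to that of Angptl6, with 4 above 0, 6 below and a median of -0.07. The summed level of the 10 was 149.8 to 231 CPM in Ad-Dyrk1b and 164 to 198 CPM in Ad-EGFP. The Angptl6 call ended without Ad-Dyrk1b replicate 3 (0.78, adjusted p 0.0562) or Ad-EGFP replicate 3 (0.86, adjusted p 0.0584). Mesothelial markers had 1 call among 4 tested, Lrrn4 (1.53 ± 0.39, edgeR adjusted p 0.0243), and a summed level of 8.64 to 19.8 CPM against 4.78 to 7.11 CPM, without overlap. The estimates of the 4 were all above 0, from 0.76 to 1.96 with a median of 1.62. DESeq2 and the authors' deposited table each had 3 genes of this list higher (beside 8.18% and 6.02% of all genes), and limma-voom had 1 (beside 6.96%). The call of Lrrn4 ended without Ad-Dyrk1b replicate 1 (1.53, adjusted p 0.0611), Ad-Dyrk1b replicate 2 (1.23, adjusted p 0.105), Ad-EGFP replicate 2 (1.48, adjusted p 0.0642) or Ad-EGFP replicate 3 (1.32, adjusted p 0.0866).

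Portal fibroblast markers had 2 calls among 8 tested, Thy1 (log2 fold change 0.90 ± 0.25 SE, edgeR adjusted p 0.0359) and Cd34 (0.80 ± 0.22, edgeR adjusted p 0.0362), with a summed level of 74.2 to 84.7 CPM in Ad-Dyrk1b and 59.7 to 74.9 CPM in Ad-EGFP. Both portal fibroblast calls ended on leaving out single libraries: Thy1 without Ad-Dyrk1b replicate 2 (0.83, adjusted p 0.108), its replicate 3 (0.83, 0.0880), Ad-EGFP replicate 1 (0.71, 0.110) or its replicate 3 (0.88, 0.0926). Cd34 lost its call without Ad-Dyrk1b replicate 1 (0.81, 0.0831), its replicate 2 (0.72, 0.121), Ad-EGFP replicate 1 (0.64, 0.112) or its replicate 3 (0.83, 0.0790). Smooth muscle markers had no call among 4 tested, with a summed level of 64.1 to 78.9 CPM in Ad-Dyrk1b, below the 79.5 to 85.9 CPM of Ad-EGFP, and Myocd, a defining factor of that lineage, had 0 or 1 count a library.

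Endothelial markers had 1 call among 11 tested, Fcgr2b (log2 fold change 0.39 ± 0.11 SE, edgeR adjusted p 0.0405), and a summed level of 272 to 366 CPM in Ad-Dyrk1b against 184 to 269.7 CPM in Ad-EGFP, without overlap. The estimates of the 11 were all above 0, from 0.16 to 0.83 with a median of 0.38. DESeq2, limma-voom and the authors' deposited table each had 2 of them higher (beside 8.18%, 6.96% and 6.02% of all genes). The Fcgr2b call ended without Ad-Dyrk1b replicate 1 (0.33, 0.129), its replicate 3 (0.38, 0.0906), Ad-EGFP replicate 1 (0.33, 0.144) or its replicate 3 (0.39, 0.0957). T and NK cell markers had 1 call among 6, Gzmb (1.14 ± 0.14, edgeR adjusted p 0.000384), and a summed level of 29.7 to 38.8 CPM against 17.8 to 23.6 CPM. Kupffer cell, cholangiocyte, platelet, erythroid and hepatocyte markers had no call among 5, 5, 3, 6 and 8 tested. Their summed levels in Ad-Dyrk1b and Ad-EGFP were 705 to 889 against 410.0 to 817 CPM (Kupffer cell), 15.4 to 20.4 against 13.4 to 14.7 CPM (cholangiocyte), 6.02 to 10.3 against 5.49 to 7.67 CPM (platelet), 869 to 3819 against 522 to 840 CPM (erythroid) and 62249 to 81438 against 76412 to 82943 CPM (hepatocyte). The part of these cell types in the collagen values was not tested.

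Genes that make, modify, bind or degrade collagen were followed from lists of 150 genes outside the members, of which 135 were tested. The test called 15 higher (11.1%, beside 7.36% of all tested genes) and 1 lower (beside 4.81% of all tested genes). Lama3, among the 15, passed the filter on low counts only through the Ad-Dyrk1b libraries, so the filter partly sets this count and that of its list. The median log2 fold change of the 135 tested genes was 0.19. Collagen biosynthesis and processing had 4 of 26 higher, TGF-beta signalling 3 of 27, proteases and inhibitors 1 of 19, matrix receptors 1 of 23, other matrix proteins 6 higher and 1 lower of 36, and the 4 PDGF ligands none. The list medians were 0.23, 0.16, 0.09, 0.25, 0.18 and 0.13.

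The collagen-modifying enzymes that rose act on the chains inside and outside the cell. P3h1, a prolyl 3-hydroxylase, stood at 36.1, 34.1 and 33.2 CPM in Ad-Dyrk1b and 17.7, 21.4 and 21.1 CPM in Ad-EGFP, a rise of 0.78 ± 0.12 (SE) on the log2 scale with an edgeR adjusted p of 0.00125. P4ha2, a catalytic subunit of prolyl 4-hydroxylase, which stabilises the triple helix, stood at 11.3, 15.2 and 18.7 CPM against 6.88, 9.52 and 8.001 CPM (0.88 ± 0.20, edgeR adjusted p 0.0134). Plod1, a lysyl hydroxylase, stood at 77.9, 80.7 and 101 CPM against 55.0, 67.6 and 65.7 CPM (0.46 ± 0.12, edgeR adjusted p 0.0307). In all 3 genes the groups did not overlap.

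Tgm2, tissue transglutaminase, which cross-links matrix proteins, stood at 594, 709 and 654 CPM in Ad-Dyrk1b and 374, 383 and 398 CPM in Ad-EGFP (0.76 ± 0.11 SE, edgeR adjusted p 0.00106). Of its exonic bases 13.7% lie in Gm20412 and 8.03% in Rprd1b on the opposite strand. The P4ha2 call ended without Ad-Dyrk1b replicate 3 (0.70, adjusted p 0.0517), Ad-EGFP replicate 1 (0.78, 0.0506) or Ad-EGFP replicate 3 (0.87, 0.0505). The Plod1 call ended without Ad-Dyrk1b replicate 2 (0.51, 0.0502), its replicate 3 (0.34, 0.107), Ad-EGFP replicate 1 (0.38, 0.121) or its replicate 3 (0.49, 0.0636). Tgm2 and P3h1 were called under all 14 alternative settings.

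Timp4, a tissue inhibitor of metalloproteinases outside the members, had the smallest p of the pathway genes. It stood at 32.2, 25.04 and 37.1 CPM in Ad-Dyrk1b and 5.44, 6.73 and 7.95 CPM in Ad-EGFP, and the groups did not overlap. The log2 fold change was 2.23 ± 0.18 (SE) with an edgeR adjusted p of 1.48e-05, and the call held under all 14 alternative settings.

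Laminins, the cross-shaped trimers of basement membranes, moved in both directions. Lama3, a chain of epithelial laminin, had 34, 50 and 46 counts in Ad-Dyrk1b and 8, 6 and 6 in Ad-EGFP, which passed the filter only through the Ad-Dyrk1b libraries (2.66 ± 0.38 SE on the log2 scale, edgeR adjusted p 0.000958). Lamb3, its partner chain, rose from 5.10, 5.14 and 3.83 CPM in Ad-EGFP to 7.35, 9.68 and 9.65 CPM in Ad-Dyrk1b (0.92 ± 0.20, edgeR adjusted p 0.0115). Lama5, the broadly distributed alpha chain, fell from 21.9, 19.2 and 15.2 CPM to 9.36, 11.1 and 9.88 CPM (-0.89 ± 0.16, edgeR adjusted p 0.00390). The groups of each of the 3 genes did not overlap, and all 3 calls held under all 14 alternative settings.

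The 4 remaining called matrix proteins all rose. Spp1 (osteopontin) stood at 406, 403 and 312 CPM in Ad-Dyrk1b and 186, 223 and 214 CPM in Ad-EGFP (0.85 ± 0.13 SE, edgeR adjusted p 0.00134), and 18.8% of its exonic bases are shared with Gm42793 on the same strand. Fmod (fibromodulin), a collagen-binding proteoglycan, stood at 1.85, 5.35 and 4.42 CPM against 1.498, 1.204 and 1.06 CPM (1.62 ± 0.38, edgeR adjusted p 0.0178). Its call ended without Ad-Dyrk1b replicate 2 (1.31, adjusted p 0.0759), Ad-EGFP replicate 2 (1.59, 0.0580) or Ad-EGFP replicate 3 (1.51, 0.0687). Spon1 and Spon2, secreted spondins, rose by 0.72 ± 0.22 and 0.66 ± 0.18 (edgeR adjusted p 0.0499 and 0.0318). The Spon1 call ended on leaving out any of the 6 libraries (adjusted p 0.0540 to 0.150), and the Spon2 call on leaving out any except Ad-Dyrk1b replicate 3 (0.0736 to 0.108 without each of the others).

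In the TGF-beta list, which holds ligands, receptors, latency proteins and SMAD factors, 3 of 27 genes rose. Tgfbr2, the ligand-binding type II receptor, stood at 70.0, 77.4 and 93.5 CPM in Ad-Dyrk1b and 48.6, 58.1 and 45.1 CPM in Ad-EGFP (0.67 ± 0.13 SE, edgeR adjusted p 0.00631). Tgfb3, a ligand, stood at 3.81, 4.33 and 4.59 CPM against 1.39, 3.17 and 1.56 CPM (1.05 ± 0.31, edgeR adjusted p 0.0465). Itgav, the integrin subunit that activates latent TGF-beta, stood at 57.6, 66.6 and 57.6 CPM against 43.2, 50.7 and 41.3 CPM (0.43 ± 0.11, edgeR adjusted p 0.0273). All 3 had groups that did not overlap.

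The Tgfbr2 call held on leaving out each library, that of Itgav ended without Ad-Dyrk1b replicate 2 (0.36, adjusted p 0.105), Ad-EGFP replicate 1 (0.40, 0.0985) or its replicate 3 (0.37, 0.0966), and that of Tgfb3 ended on leaving out any library except Ad-EGFP replicate 2 (adjusted p 0.0777 to 0.142). Itga4, the alpha subunit of a fibronectin-binding integrin of leukocytes, was the only matrix receptor called, at 27.3, 33.6 and 37.5 CPM in Ad-Dyrk1b and 21.2, 24.2 and 20.8 CPM in Ad-EGFP (0.57 ± 0.13 SE, edgeR adjusted p 0.0171). Its call ended without Ad-Dyrk1b replicate 2 (0.55, adjusted p 0.0561), its replicate 3 (0.46, 0.0644), Ad-EGFP replicate 1 (0.54, 0.0575) or its replicate 3 (0.53, 0.0624). Of the exonic bases of Itga4, 8.04% also lie in Cerkl on the opposite strand. Of the 6 tested T and NK cell markers only Gzmb was called, at a mean of 17.3 CPM in Ad-Dyrk1b and 7.83 CPM in Ad-EGFP. The log2 fold changes of the 6 ran from -0.12 (Klrb1c) to 1.14 (Gzmb), with 5 above 0, 1 below and a median of 0.49. The part of these cells in the Itga4 value was not tested.

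With limma-trend on the deposited FPKM, the calls of Tgfbr2, Tgfb3, Itgav, Itga4, P4ha2, Plod1, Spon1 and Spon2 ended with a pseudocount of 1 and also with 0.1. Their limma-trend adjusted p ran from 0.0603 (P4ha2, pseudocount 0.1) to 0.132 (Plod1, pseudocount 1), and for Tgfbr2 they were 0.0662 and 0.0636. The Fmod call ended with limma-voom (1.47, adjusted p 0.0566) and with limma-trend at a pseudocount of 1 (adjusted p 0.0533). Of the marker calls, those of Lrrn4, Cd34 and Fcgr2b ended with limma-trend at both pseudocounts (adjusted p 0.0528 to 0.224).

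**Figure D4:**
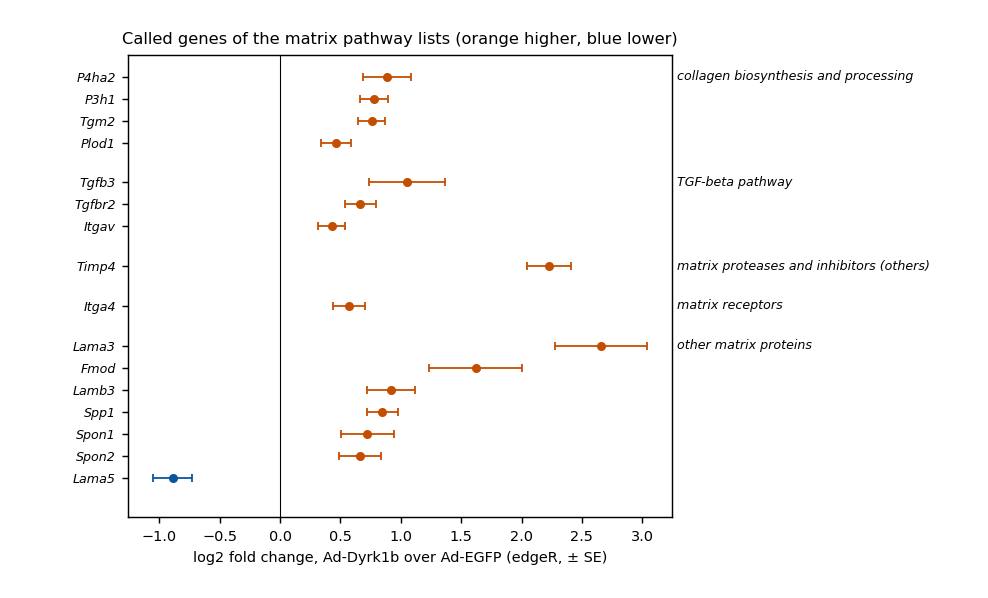
Log2 fold change, Ad-Dyrk1b over Ad-EGFP, of the 16 called genes in the collagen and matrix pathway lists, from edgeR with 3 libraries a group; points are estimates and bars are standard errors. Timp4 (2.23) and Lama3 (2.66) lie farthest above 0, and Lama5 (-0.89) is the only gene below 0.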

How the data were processed

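The 6 RNA-seq libraries of mouse liver were analysed from 1 deposited table. Per the file headers, it holds the authors' raw read counts and FPKM per gene and library, group means, a log2 fold change, a p-value and an adjusted p-value (FDR). The submitters' processing notes name the mm10 build and DESeq2; the sources used here do not give the aligner, counter or strand setting. Per the labels' protocols, mRNA was enriched and libraries were made with a NEBNext Ultra kit. Coordinates are from GENCODE M21 (GRCm38, the same build), in which all 66 members were found by identifier.

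Counts were tested with edgeR 4.0.16 in R 4.3.3 (robust quasi-likelihood F-test, TMM scaling, filterByExpr with a minimum count of 10 and minimum total of 15) on all 13201 genes passing the filter, with all 6 libraries and no covariate. Adjustment was Benjamini-Hochberg over those genes, with calls at an adjusted p under 0.05. The standard error is the log2 fold change divided by the square root of F. CPM uses TMM-scaled totals. The deposited FPKM was used to compare genes, for the group means given in FPKM, for the chain ratios and in alternatives. The fit was tested on simulated counts. The 14 alternatives were DESeq2 1.42.0, limma-voom (limma 3.58.1), RLE size factors, no low-count filter, CPM above 1 in 3 libraries, limma-trend on log2(FPKM + 1) and log2(FPKM + 0.1), the replicate number as a block, and each library left out. Counting intervals are exact binomial. Named with full values were all called members, called genes of the pathway and marker lists (up to 6 a direction) and up to 4 members with the highest mean FPKM in each of 11 roles. Members and lists were chosen with earlier results of these data known. The labels give no batch.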

Additional observations from a re-analysis of the deposited data

How the results depend on the processing

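Over the 14 alternative settings the 3 called members kept their direction wherever they were tested (Col9a2 was not tested with CPM above 1 in 3 libraries), and every result that turned was of a gene that was not called. The count of members called lower, 0 with edgeR, was 1 with DESeq2 (Col3a1), 1 without the low-count filter (Col25a1), 1 with limma-trend on log2(FPKM + 1), 1 on log2(FPKM + 0.1) (Col3a1 in both) and 0 to 7 on leaving out single libraries, with 7 without Ad-EGFP replicate 1 and 1 without Ad-Dyrk1b replicate 3 (Reln). The count called higher was 2 to 4 on leaving out libraries. The 15 pathway genes called higher became 6 and 7 with limma-trend on FPKM (pseudocount 1 and 0.1) and 7 to 15 on leaving out libraries, and the 1 called lower became 2 with DESeq2 and 1 to 2 on leaving out libraries. Over all genes, 972 were higher and 635 lower with edgeR, 1137 and 689 with DESeq2, and 1019 and 686 without the low-count filter. With limma-trend 556 were higher and 702 lower on log2(FPKM + 1), and 553 and 698 on log2(FPKM + 0.1). On leaving out single libraries 612 to 800 genes were higher and 294 to 461 lower. The counts of members and pathway genes above stand beside these, and the cause of the differences was not tested.

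With the replicate number as a block, edgeR still called Col9a1, Col9a2 and Col12a1 higher and ended the calls of Spon1 and Fcgr2b (adjusted p 0.0536 and 0.0520). It called 2 members lower (Col3a1, adjusted p 0.0134, and Col1a1, 0.0141), 17 pathway genes higher and 2 lower. Over all 13201 tested genes the same fit called 1109 higher and 774 lower, against 972 and 635 without the block. Same-numbered libraries had deviations correlated at 0.024, 0.172 and 0.108, not every library correlated best with its own number, and the labels give no shared animal or day, so the numbers were not taken as pairs.

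Estimates near 0 turned as follows. With limma-trend on FPKM (pseudocount 1, then 0.1), Col4a1 was 0.196 and 0.206, Col16a1 -0.0043 and -0.0052, Dcn -0.025 and -0.026, and Timp2 -0.143 and -0.180. Col4a1 was 0.024 with limma-voom and 0.023 with the block. Des was 0.0018 with DESeq2, 0.0081 with limma-voom, 0.0045 with RLE, 0.0026 with the stricter filter and 0.0067 with the block, and Tgfb1 was 0.010 with limma-voom and 0.0056 with the block. On leaving out single libraries the estimates ranged from -0.219 to 0.268 (Col4a1), -0.055 to 0.508 (Col6a1), -0.0040 to 0.531 (Col6a2), -0.376 to 0.020 (Col14a1), -0.416 to 0.243 (Col15a1), -0.0015 to 0.135 (Col16a1), -0.118 to 0.107 (Des), -0.169 to 0.090 (Tgfb1), -0.183 to 0.226 (Dcn), -0.309 to 0.168 (Lox), -0.416 to 0.043 (Loxl1), -0.460 to 0.014 (Mmp2), -0.180 to 0.017 (Mmp14) and -0.157 to 0.190 (Timp2). Depth limits Col9a1, Col9a2 and the 19 genes under the filter, which had few counts in single libraries.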

Other observations

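Ratios between chains of one collagen type, taken from the deposited FPKM, describe the balance of chains without a test. Col1a1 to Col1a2 was 0.63, 0.73 and 0.69 in Ad-Dyrk1b and 0.76, 0.73 and 0.68 in Ad-EGFP, and the groups overlapped. Col6a1 to Col6a3 was 1.65, 2.33 and 2.87 against 1.75, 1.54 and 1.35, where Ad-Dyrk1b replicate 1 lay within the Ad-EGFP range and the other 2 above it. Col9a1 to Col9a2 was 2.40, 0.92 and 1.83 against 1 in replicate 1, 0.67 and 0.50, with each Ad-EGFP value resting on 2 to 4 counts per gene.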
